A study of Bos grunniens and Bos grunniens x Bos taurus with 12 samples.

Results

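The translation of 10 genes of Leydig cell steroidogenesis was examined in testes of yak and cattle–yak: STAR, CYP11A1, CYP17A1, CYP19A1, HSD17B3, SRD5A1, LHCGR, INSL3, FDX1 and SCARB1. The genes were looked up by symbol in tables of 20965 genes, of which 13662 carry a symbol, and 5 of the 10 were found: STAR, CYP11A1, SRD5A1, FDX1 and SCARB1. CYP17A1, CYP19A1, HSD17B3, LHCGR and INSL3 are absent as symbols. For 4 of these, 6 rows without a symbol carry a description of the same protein, namely INSL3 (ENSBGRG00000025999), LHCGR (ENSBGRG00000011219), CYP19A1 (ENSBGRG00000009541) and 3 rows described as CYP17A1 (ENSBGRG00000008360, ENSBGRG00000008565 and ENSBGRG00000007921, here rows 1, 2 and 3). These described rows were added after the tables had been read, are counted apart from the 5 genes found by symbol, and rest on the description alone. HSD17B3 was not analysed here. The tables give no positions.

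Leydig cells lie between the seminiferous tubules and make testosterone from cholesterol. Luteinizing hormone acts on them through its receptor LHCGR, SCARB1 takes up cholesterol from lipoproteins, and STAR moves cholesterol into the mitochondrion, where CYP11A1, supplied with electrons by FDX1, cuts it to pregnenolone. CYP17A1 and HSD17B3 then lead to androgens, SRD5A1 reduces testosterone to dihydrotestosterone, and CYP19A1, the aromatase, converts androgens to estrogens. INSL3 is a peptide hormone of Leydig cells that takes part in testis descent. Leydig cells of the fetus and of the adult are separate populations in mammals, and the share of the testis that they fill falls as the tubules grow and fill with germ cells.

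Ribo-seq, which sequences mRNA fragments that ribosomes protect from nuclease, was performed on 12 testes in 4 groups of 3 animals. The groups were juvenile yak of 6 months (Y6M), pubertal yak of 18 months (Y18M), sexually mature yak of 4 years (Y4Y) and cattle–yak (CY) at sexual maturity, labelled as 4 years old too. The cattle–yak are hybrids of Jersey bulls and Gannan yak cows, whose males are sterile. The study's methods give euthanasia for the yaks of 4 years and castration for the cattle–yaks, whereas the labels give castration for all, so that the mode of collection and the group cannot be told apart. Totals were 25816963 to 37167651 counts per library in Y6M, 21309151 to 24542362 in Y18M, 16304058 to 17862516 in Y4Y and 38437889 to 52616039 in CY. In bulk tissue, fewer Leydig cells and fewer protected fragments per Leydig cell cannot be told apart. The study's RNA-seq data were not used here, so less mRNA and less translation of each mRNA cannot be told apart either.

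Library 2 of Y18M stood apart from the other Y18M libraries. The summed FPKM (fragments scaled to the length of the gene and the size of the library) of 5 spermatid markers was 6945 in it, against 2.80 and 16.1 in Y18M libraries 1 and 3. In Y4Y this sum was 8973 to 11759, so Y18M library 2 lay closer to Y4Y than to the other animals of its group. Tests with Y18M are therefore also given without it. Of 3 adrenal cortex genes listed, 2 were found, with a summed FPKM of at most 1.75 in any library. This sum was 0.30 to 0.55 in Y4Y and 0.77 to 1.75 in CY.

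STAR, the transfer protein that sets the pace of steroid synthesis, had an FPKM of 1340, 2182 and 2147 in the 3 libraries of Y6M, 768, 312 and 344 in Y18M, 123, 48.3 and 161 in Y4Y, and 490, 881 and 500 in CY. The 4 groups therefore ran Y6M, CY, Y18M, Y4Y from high to low, and of the neighbours in this order only CY and Y18M overlapped. CYP11A1, the side-chain cleavage enzyme, had an FPKM of 245, 259 and 359 in Y6M, 142, 48.6 and 48.1 in Y18M, 16.8, 10.5 and 26.7 in Y4Y, and 126, 160 and 80.5 in CY. It had the same order of groups as STAR, again with overlap of CY and Y18M alone among neighbours. Over the 12 libraries, the log2 level of CYP11A1, centred on its own mean, differed from that of STAR by a root mean square of 0.29, where the SD of STAR itself was 1.86.

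**Figure D1:**
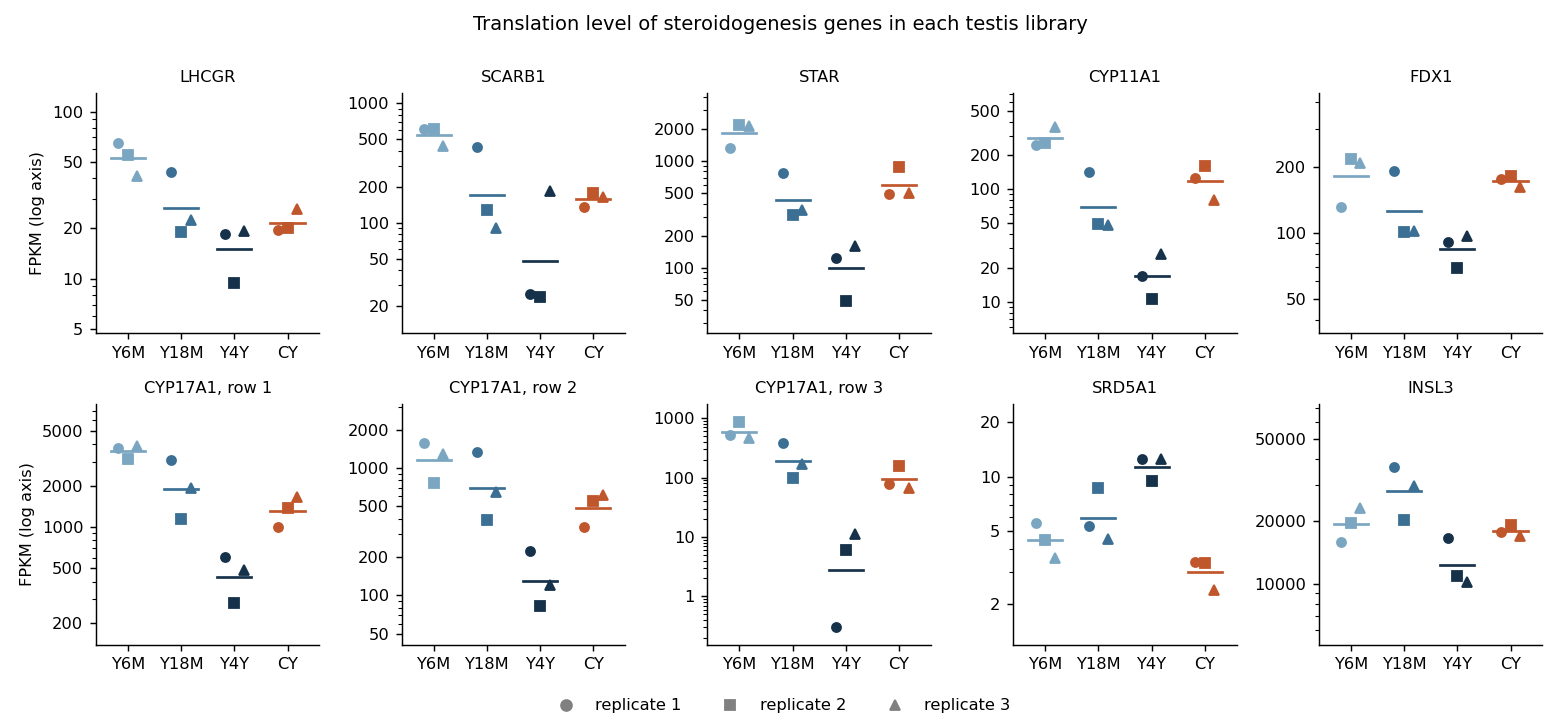
FPKM (log axis) of LHCGR, SCARB1, STAR, CYP11A1, FDX1, CYP17A1 rows 1 to 3, SRD5A1 and INSL3 in each of the 12 libraries, with the geometric mean of each group as a line. LHCGR, SCARB1, STAR, CYP11A1, FDX1, CYP17A1 and INSL3 are lowest in Y4Y by their means, SRD5A1 is highest there, and CY lies above Y4Y in every library for STAR, CYP11A1, FDX1 and CYP17A1.

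FDX1, the ferredoxin of the mitochondrial P450 enzymes, varied less. Its FPKM was 132, 219 and 209 in Y6M, 192, 101 and 102 in Y18M, 91.0, 69.4 and 96.7 in Y4Y, and 178, 182 and 162 in CY. Y6M, CY and Y18M overlapped, and Y4Y lay below every other library. SCARB1, the receptor for high-density lipoprotein, had an FPKM of 608, 607 and 439 in Y6M, 425, 129 and 90.1 in Y18M, 25.2, 23.7 and 184 in Y4Y, and 136, 177 and 162 in CY. Y4Y library 3 was higher than the other Y4Y libraries and exceeded all CY libraries, so that these groups overlapped for SCARB1.

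SRD5A1, which makes dihydrotestosterone, ran the other way at a much lower level. Its FPKM was 5.55, 4.51 and 3.57 in Y6M, 5.39, 8.65 and 4.52 in Y18M, 12.5, 9.41 and 12.5 in Y4Y, and 3.38, 3.35 and 2.40 in CY, from 74 to 178 counts per library. Y4Y lay above and CY below all other libraries, while Y18M and Y6M overlapped.

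INSL3 was the gene with the highest FPKM of all 20965 in each of the 3 CY libraries. Its FPKM was 15927, 19730 and 23082 in Y6M, 36597, 20286 and 29734 in Y18M, 16627, 10901 and 10227 in Y4Y, and 17715, 19140 and 17020 in CY. It ranked 5 in each Y6M library, 2 or 3 in Y18M and 3 or 4 in Y4Y, and held 0.539% ± 0.15 of all counts in Y4Y and 1.24% ± 0.35 in Y18M (SD, n = 3). Y6M overlapped with both Y18M and CY, whereas CY lay above Y4Y in all libraries. LHCGR had an FPKM of 64.5, 55.2 and 41.2 in Y6M, 43.7, 19.1 and 22.5 in Y18M, 18.7, 9.45 and 19.3 in Y4Y, and 19.5, 19.99 and 26.1 in CY. All CY libraries were above all Y4Y libraries, but the highest Y4Y and the lowest CY library differed by less than 1 FPKM.

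CYP17A1, which has 17-alpha-hydroxylase and 17,20-lyase activity, was spread over 3 rows with the same description. If they are copies of a gene, reads may have been divided between them, so each row is uncertain on its own. Row 1 had an FPKM of 3753, 3136 and 3930 in Y6M, 3099, 1150 and 1929 in Y18M, 606, 279 and 487 in Y4Y, and 1000, 1382 and 1657 in CY. Row 1 held 65.1% to 79.5% of the counts of the 3 rows in each library and row 2 held 15.2% to 26.3%. Row 3 took 8.50% to 18.5% of these counts in Y6M, 2.93% to 7.79% in CY, and 0.0408%, 1.67% and 1.86% in the 3 libraries of Y4Y. Its counts were 9, 165 and 283 in Y4Y and 3949 to 9412 in CY. The summed FPKM of the rows was 5427 ± 590 in Y6M, 3062 ± 1601 in Y18M, 605 ± 231 in Y4Y and 1949 ± 475 in CY (SD, n = 3). CYP19A1 had between 0 and 9 counts per library, with at most 0.49 FPKM, and was removed by the filter on low counts. Without that filter it was not called in any of the 5 comparisons (adjusted p of 0.235 to 0.975, edgeR). In Y6M library 1 and Y18M library 3 it had 0 counts, which allows up to 3, for counting error only.

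The study compared cattle–yak with yak of the same label age, and this comparison tests whether steroidogenic genes differ between the hybrid and the mature yak testis. Of the 5 genes found by symbol, STAR, CYP11A1 and FDX1 rose in CY and SRD5A1 fell. The quasi-likelihood test of edgeR was run on the 6 libraries, and a gene counted as called if its adjusted p was below 0.05 and its log2 fold change was 1 or more in size. Among all 16498 genes tested, 44% were called, 17.1% higher and 27% lower in CY. The share of members called is to be read against that background, and their median log2 fold change was 1.05, against -0.0022 over all genes tested. This median is the value of SCARB1, which was not called, and it was 2.75 without Y4Y library 3. The log2 fold change of STAR was 2.50 ± 0.43 (SE, adjusted p = 0.00114, edgeR), or 5.67-fold. That of CYP11A1 was 2.78 ± 0.37 (adjusted p = 0.000268, edgeR), or 6.86-fold. SRD5A1 was 3.71-fold lower in CY, at a log2 fold change of -1.89 ± 0.25 (adjusted p = 0.000266, edgeR). FDX1 lay at the edge of the call, at 1.03 ± 0.15 (adjusted p = 0.000474, edgeR), and was 0.99 with DESeq2 and 0.96 without Y4Y library 2, either of which ended the call on the size of the change.

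SCARB1, at 1.05 ± 0.71 on the log2 scale, did not pass the test (adjusted p = 0.224, edgeR). Without Y4Y library 3 it was 2.75 (adjusted p = 2.39e-05, edgeR), and all 5 genes were then called, against 41.6% of all genes. That library is named for its own high SCARB1, so this omission was chosen on the value tested. With each library left out in turn, SCARB1 ran from 0.69 to 2.75, with adjusted p up to 0.412 (edgeR). Of the 5 described rows that could be tested, the 3 CYP17A1 rows rose in CY, by log2 fold changes of 1.56 ± 0.30, 1.82 ± 0.37 and 4.14 ± 0.85 (adjusted p = 0.00195, 0.0028 and 0.00285, edgeR). With the rows summed the change was 1.69 (adjusted p = 0.0015, edgeR). INSL3 and LHCGR were not called, at 0.52 ± 0.21 and 0.46 ± 0.27 (adjusted p = 0.0594 and 0.168, edgeR).

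The scale on which libraries were compared bears on these directions. With libraries scaled to the Sertoli cell genes SOX9 and WT1 in place of the whole library, the median of all genes moved to -1.96, the change of STAR was 0.46 and that of CYP11A1 0.73, neither of them called, and those of FDX1 and SCARB1 were -0.95 and -1.10. Under that scaling only SRD5A1, at -3.87, stayed called among the 5 genes, against 80.6% of all genes, while INSL3 turned to -1.43 and LHCGR to -1.53, both called lower (adjusted p = 0.000218 and 0.00194, edgeR). CYP17A1 rows 1 and 2 turned to -0.41 and -0.13, not called, and row 3 stayed called higher, at 2.07 (adjusted p = 0.035, edgeR). SOX9 itself had an FPKM of 37.9 ± 7.1 in Y4Y and 200 ± 9.6 in CY (SD, n = 3), and WT1 44.0 ± 6.0 and 119 ± 6.3. The scaling rests on these 2 genes alone. Of the 5 Sertoli markers found, which include both, 2 were called higher in CY, and the median log2 fold change of the 5 was 0.69. Scaling to the other Sertoli markers was not tested.

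**Figure D2:**
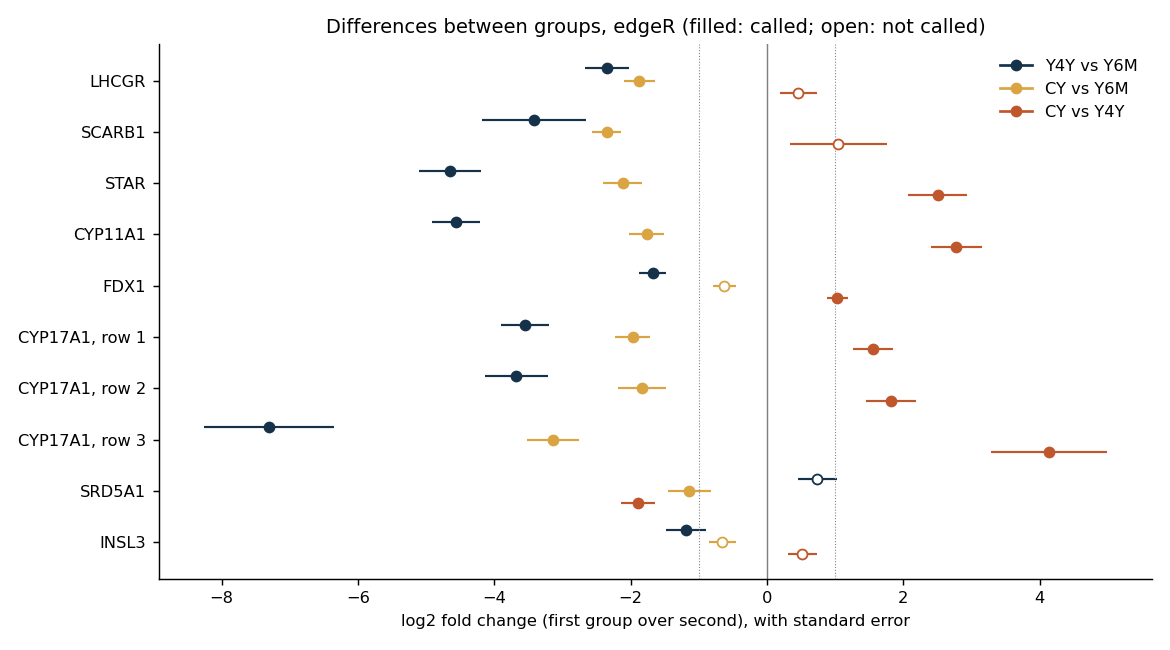
Log2 fold change with its standard error for each gene in 3 comparisons, with filled points for genes called by edgeR and open points for those not called, and dotted lines at a change of 1 in size. STAR, CYP11A1 and the CYP17A1 rows lie below 0 in Y4Y and in CY against Y6M and above 0 in CY against Y4Y, whereas SRD5A1 lies below 0 in both comparisons of CY.

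Markers of several other cell types also differed between CY and Y4Y, in both directions. The lists are not free of genes that the study assigns to Leydig cells. It treats PDGFRA, here a fibroblast marker, as a marker of stem Leydig cells, and ACTA2 and MYH11, here myoid markers, as Leydig markers. The 5 spermatid markers were all called lower in CY (median -9.89 on the log2 scale), where their summed FPKM was 2.70 to 30.2. Of 5 peritubular myoid markers all 5 were called higher in CY, with a summed FPKM of 211 to 219 in Y4Y and 780 to 1291 in CY. Of 5 Sertoli markers 2 were called higher, with a summed FPKM of 116 to 184 in Y4Y and 388 to 415 in CY, and of 4 fibroblast markers 3 were called higher, from 102 to 138 in Y4Y to 306 to 506 in CY. Of the macrophage and of the endothelial markers none was called higher, and 1 of 5 was called lower in each list. Of 4 spermatogonium markers 2 were called higher, and of 7 spermatocyte markers 2 were called lower. Among all genes 17.1% were called higher and 27% lower, so 2 of 7 or 1 of 5 called lower is near the share of all genes. Of the adrenal cortex genes 1 could be tested. It was called higher in CY, at 1.91 on the log2 scale, but not without Y4Y library 3. No marker was at 0 in a whole group. The part of these cell types in the difference of the Leydig genes was not tested.

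**Figure D3:**
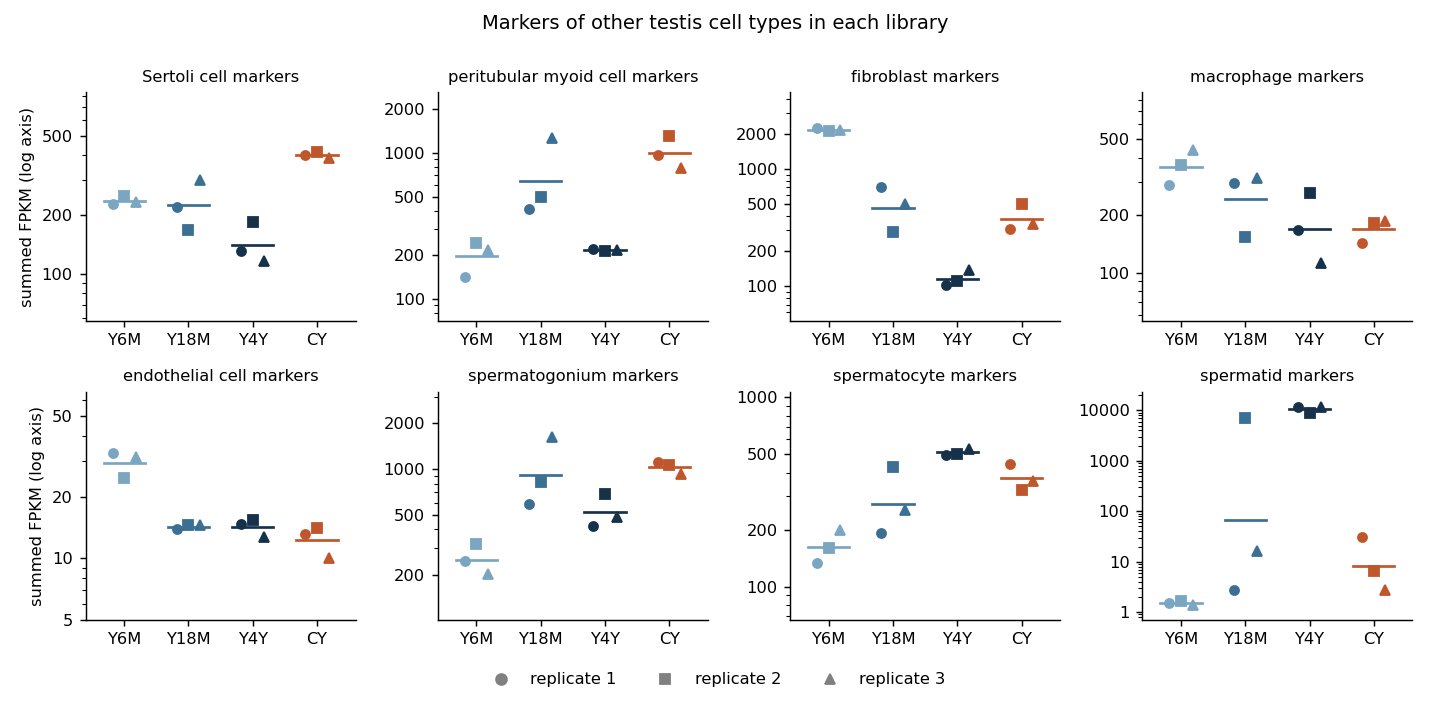
Summed FPKM (log axis) of the markers of 8 other testis cell types in each library, with the geometric mean of each group as a line. Spermatid markers reach 8973 to 11759 in Y4Y and 6945 in Y18M library 2, and stay at or below 30.2 in all Y6M, CY and other Y18M libraries.

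The other genes of the pathway were taken from a list of 51, of which 43 were found by symbol. In CY against Y4Y, 38 could be tested, 18 were called higher and 4 lower, with a median log2 fold change of 0.90, where 17.1% of all genes were called higher and 27% lower. Of 8 steroid enzymes 2 were called higher and 2 lower, with a median of -0.07. Of 4 hormone receptors none was called higher and 1 lower, with a median of 0.10. Of 12 regulators 10 were called higher and none lower. GATA4 and GATA6, factors that act on steroidogenic promoters, rose by 1.997 ± 0.16 and 1.89 ± 0.18 on the log2 scale (SE), TCF21, a factor of interstitial progenitors, by 1.97 ± 0.25, and NR5A1, the steroidogenic factor, by 1.65 ± 0.13. All 4 had adjusted p of at most 0.000217 by edgeR. With the Sertoli scaling the changes of GATA4, GATA6, TCF21 and NR5A1 were 0.06, -0.03, 0.01 and -0.31, and none was called.

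Among the partners of the P450 enzymes, FDXR, the reductase that feeds FDX1, and CYB5A, which aids the lyase reaction of CYP17A1, rose in CY, by 1.26 ± 0.19 and 1.201 ± 0.15 (adjusted p = 0.00046 and 0.000153, edgeR). POR, the reductase of microsomal P450 enzymes, had a change of 0.96 ± 0.14, below the threshold of size. In all, 2 of 5 genes of electron transfer were called. A row described as 3-beta-hydroxysteroid dehydrogenase, which turns pregnenolone to progesterone, was likewise just short of the threshold, at 0.99 ± 0.22 (adjusted p = 0.00432, edgeR). Of 9 genes of cholesterol supply 4 were called higher and 1 lower. TSPO, a described row chosen after its values were seen, was at 0.16 ± 0.22. With the Sertoli scaling FDXR, CYB5A, POR, the 3-beta-hydroxysteroid dehydrogenase row and TSPO all lay below 0, at -0.72, -0.78, -0.98, -0.97 and -1.74.

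The 4 genes called lower in CY were HSD17B1, LIPE, HSD17B6 and PRLR. HSD17B1, an enzyme known for reducing estrone, had 1452 to 1997 counts in Y4Y and 44, 3 and 5 in CY, a log2 fold change of -7.95 ± 0.60 (adjusted p = 1.16e-05, edgeR). LIPE, hormone-sensitive lipase, which frees stored cholesterol, had an FPKM of 32.3 to 36.1 in Y4Y and 2.04 to 2.61 in CY, a change of -3.93 ± 0.15 (adjusted p = 5.96e-07, edgeR). HSD17B6 and PRLR, the prolactin receptor, had at most 31 counts in any library, with changes of -2.34 ± 0.51 and -2.61 ± 0.68, and neither was called with all 12 libraries in the fit. In Y18M, HSD17B1 had 1283 counts in library 2 and 14 and 13 in the other libraries, and LIPE 941 against 77 and 85, so both were high in the libraries with high spermatid markers, whose part in this was not tested. RXFP2, the receptor of INSL3, had 1 to 21 counts per library and was removed by the filter on low counts.

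The comparison of Y4Y with Y6M, which spans the whole age range of the yaks, showed STAR, CYP11A1, FDX1 and SCARB1 lower in the mature testis. Of all 16133 genes tested, 55.7% were called, 31% higher and 24.7% lower. STAR fell, with a change of -4.64 ± 0.45 on the log2 scale (adjusted p = 2.07e-05, edgeR), and CYP11A1 with -4.56 ± 0.35 (adjusted p = 4.76e-06, edgeR), which is 25.0-fold and 23.7-fold lower. FDX1 and SCARB1 fell as well, at -1.68 ± 0.20 and -3.42 ± 0.76 (adjusted p = 7.02e-05 and 0.00316, edgeR). The median of the 5 genes, which is the value of SCARB1, was -3.42, against 0.08 over all genes. All 5 described rows fell, at -1.19 ± 0.29 for INSL3, -2.35 ± 0.32 for LHCGR and -3.55 ± 0.35, -3.68 ± 0.47 and -7.30 ± 0.96 for the CYP17A1 rows (adjusted p of at most 0.0054, edgeR). Without Y4Y library 3 the change of SCARB1 was -5.06. SRD5A1 had a change of 0.74 ± 0.29 (adjusted p = 0.0427, edgeR), below the threshold of size. Scaled by library size alone, with a shift of the median of all genes by over 0.4, SRD5A1 was called at 1.32 and INSL3, at -0.64, was not, and with the Sertoli scaling, which moved that median to 1.47, INSL3 turned to 0.18. Under that scaling FDX1 was at -0.25 (adjusted p = 0.396, edgeR) and LHCGR at -0.95, neither of them called, and SRD5A1 was called higher at 2.12, against 67.4% of all genes called.

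Of the wider pathway, 19 of 38 genes were called lower and 4 higher in Y4Y than in Y6M, where 24.7% of all genes were called lower and 31% higher. On the log2 scale the change was -2.65 ± 0.17 for NR5A1, -2.86 ± 0.18 for GATA4, -2.91 ± 0.24 for GATA6, -4.48 ± 0.25 for TCF21, -2.77 ± 0.27 for FDXR and -1.63 ± 0.18 for POR, all of them called. LIPE and HSD17B1 rose by 3.55 ± 0.18 and 9.54 ± 0.39. The 4 fibroblast markers fell as well, from a summed FPKM of 2098 to 2254 in Y6M to 102 to 138 in Y4Y, and the 5 spermatid markers rose, from 1.41 to 1.70 in Y6M. Of 5 endothelial markers 4 were called lower, of 5 macrophage markers 3, of 5 Sertoli markers 3, with 1 higher, and of 5 myoid markers 2. Of 7 spermatocyte markers 6 were called higher. Their part in these differences was not tested.

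By its mean FPKM, CY lay between Y4Y and Y6M for STAR, CYP11A1, FDX1, SCARB1, LHCGR, INSL3 and the CYP17A1 rows, and below both for SRD5A1. Against Y6M, STAR, CYP11A1, SCARB1 and SRD5A1 fell in CY, with changes of -2.12 ± 0.28, -1.77 ± 0.26, -2.35 ± 0.22 and -1.14 ± 0.32 on the log2 scale (adjusted p = 0.00041, 0.000705, 6.77e-05 and 0.0157, edgeR). Among all 15571 genes tested 37.8% were called, 18.1% higher and 19.7% lower. FDX1 was not called, at -0.62 ± 0.16, nor INSL3, at -0.65 ± 0.20, whereas LHCGR and the CYP17A1 rows fell, at -1.87 ± 0.23, -1.97 ± 0.25, -1.84 ± 0.35 and -3.14 ± 0.38. Scaled by library size alone the median of all genes moved from -0.02 to 0.52 and the share of lower among called genes from 52.1% to 27.8%, and FDX1, INSL3 and SRD5A1 were then at -0.10, -0.12 and -0.58, with SRD5A1 no longer called. With the Sertoli scaling, which moved the median to -0.61, all 5 genes and all 5 described rows were called lower, against 44.7% of all genes called, with FDX1 at -1.20 and INSL3 at -1.24 (adjusted p = 0.000169 and 0.00184, edgeR). SRD5A1 also lost its call without Y6M library 1, at -0.88, and without CY library 3, at -0.99. Each pair of the 3 comparisons among CY, Y4Y and Y6M shares 3 libraries, so these values stand side by side and are not independent. Of 36 genes of the wider pathway, 12 were called lower and 2 higher. All 4 fibroblast and all 5 endothelial markers were called lower in CY than in Y6M, and 4 of 5 macrophage markers, while 3 of 5 myoid and 5 of 7 spermatocyte markers were called higher. Of 4 spermatogonium markers 3 were called higher and 1 lower, and of 5 Sertoli markers 1 each way. Their part was not tested.

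The steps from Y6M to Y18M and from Y18M to Y4Y gave no call among these genes with all libraries. From Y6M to Y18M the log2 fold changes were -2.26 ± 0.49 for STAR, -2.12 ± 0.53 for CYP11A1, -1.64 ± 0.66 for SCARB1, -0.78 ± 0.36 for FDX1 and 0.06 ± 0.40 for SRD5A1, with adjusted p of 0.0681, 0.0855, 0.178, 0.22 and 0.936 (edgeR). None of the 5 genes was called, and 0.0672% of all 14874 genes tested were, 0.0202% higher and 0.0471% lower in Y18M. DESeq2 called 3 of the 5, against 12.8% of all genes. Y18M library 1 had the highest level of STAR, CYP11A1, FDX1, SCARB1, LHCGR, INSL3 and CYP17A1 row 1 in its group, and without it 4 of the 5 genes were called lower in Y18M, against 16.8% of all genes, with STAR at -2.96 and CYP11A1 at -3.03 (adjusted p = 0.0102 and 0.00965, edgeR). Library 1 is named here for the levels of the tested genes themselves, so leaving it out lowers Y18M by choice. Without Y18M library 2, set apart by its spermatid markers, none was called, against 0.504% of all genes. Of the described rows INSL3 was at 0.25 ± 0.45, LHCGR at -1.25 ± 0.43 and CYP17A1 row 1 at -1.12 ± 0.50, and none was called.

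From Y18M to Y4Y the changes were -2.36 ± 0.64 for STAR, -2.42 ± 0.65 for CYP11A1, -1.79 ± 1.07 for SCARB1, -0.87 ± 0.39 for FDX1 and 0.71 ± 0.31 for SRD5A1, and again none was called (adjusted p of 0.0817 to 0.247, edgeR), nor were more than 0.0371% of all 16175 genes. DESeq2 called 2 of the 5, against 27.3% of all genes. Without Y18M library 2, STAR, CYP11A1 and FDX1 were called lower in Y4Y, at -2.61, -2.70 and -1.05 (adjusted p = 0.007, 0.00586 and 0.0335, edgeR), against 44.6% of all genes. INSL3, LHCGR and the 3 CYP17A1 rows were then called lower too, with INSL3 at -1.63 (adjusted p = 0.00752, edgeR). Without Y18M library 1 none was called, against 0.116% of all genes. With all libraries INSL3 was at -1.42 ± 0.46 and CYP17A1 row 1 at -2.41 ± 0.57, not called. In the wider pathway 0 of 38 genes were called with all libraries by edgeR and 13 by DESeq2, where DESeq2 called 27.3% of all genes. Leaving out Y18M library 2 gave 22 calls, against 44.6% of all genes.

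Ratios between the genes were taken within each library on the FPKM scale, which leaves the scaling between libraries out, and were chosen after the data were seen. The log2 ratio of CYP11A1 to STAR was close in all groups, with means of -2.70 ± 0.33 in Y6M, -2.65 ± 0.20 in Y18M, -2.55 ± 0.33 in Y4Y and -2.35 ± 0.35 in CY (SD, n = 3), and the ranges of all groups overlapped. The log2 ratio of INSL3 to STAR was 3.57, 3.18 and 3.43 in the libraries of Y6M, 5.57, 6.02 and 6.43 in Y18M, 7.08, 7.82 and 5.99 in Y4Y, and 5.18, 4.44 and 5.09 in CY. INSL3 was thus 10.5 times STAR in Y6M by the geometric mean, 64.5 times in Y18M, 125 times in Y4Y and 29.9 times in CY. No library of CY overlapped with those of Y4Y, Y18M or Y6M in this ratio, and the difference of CY from Y4Y was -2.06 on the log2 scale.

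The log2 ratio of FDX1 to STAR was -3.34 ± 0.02 in Y6M and -0.22 ± 0.66 in Y4Y (SD, n = 3), a difference of 3.13 without overlap. That of LHCGR to STAR was -5.13 ± 0.68 in Y6M, -4.03 ± 0.10 in Y18M, -2.71 ± 0.35 in Y4Y and -4.79 ± 0.61 in CY, so that CY overlapped with Y6M and lay below Y4Y and Y18M. That of CYP17A1 row 1 to STAR was 0.96 ± 0.49 in Y6M, 2.13 ± 0.32 in Y18M, 2.14 ± 0.49 in Y4Y and 1.14 ± 0.55 in CY, with overlap of Y4Y with Y18M and of CY with Y4Y and Y6M. With 3 libraries a group, the exact two-sided permutation test cannot go below p = 0.1, which it reached for INSL3, FDX1, LHCGR and SRD5A1 in CY against Y4Y and in Y4Y against Y6M. No difference in ratio could therefore pass, and the adjusted p of these over the 35 ratios tested was 0.184.

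**Figure D4:**
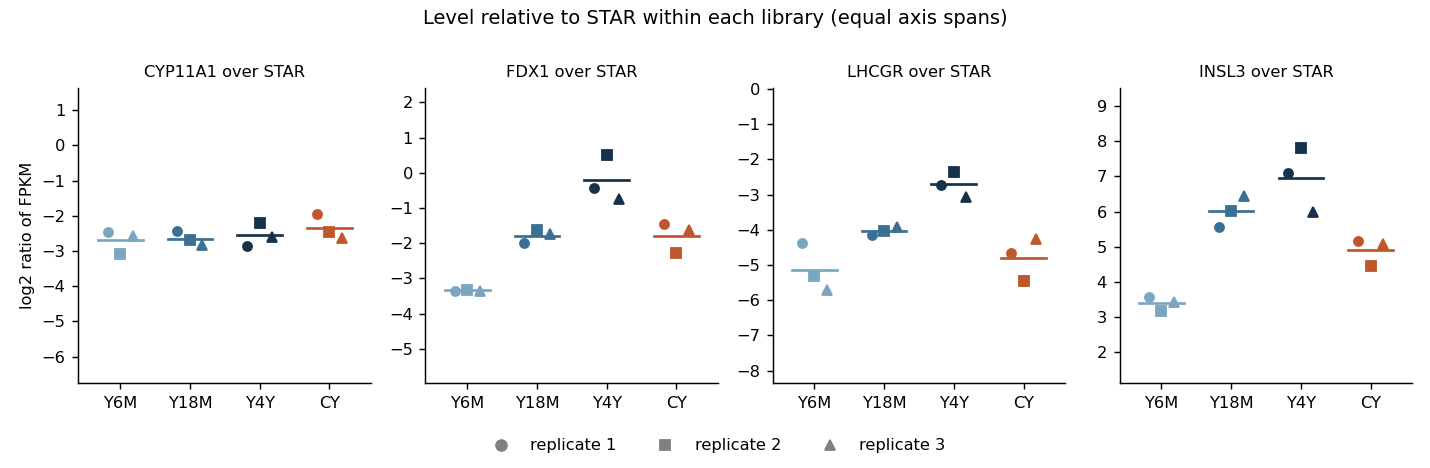
Log2 ratio of the FPKM of CYP11A1, FDX1, LHCGR and INSL3 to that of STAR within each library, with the group mean as a line and axes of equal span. CYP11A1 stays between -3.07 and -1.96 in all 12 libraries, whereas INSL3 runs from 3.18 in Y6M to 7.82 in Y4Y, with CY at 4.44 to 5.18.

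Genes with the level most like that of each member were sought among 7028 genes with a symbol and a mean above the median, by the root mean square difference of centred log2 levels over the 12 libraries. For STAR these were COL3A1 and FBN1, which encode a collagen and a fibrillin of the extracellular matrix, at 0.48 and 0.52, farther from STAR than CYP11A1 was. For CYP11A1 they were COL3A1 and COL5A2, at 0.51 and 0.56. SCARB1 was nearest to SEMA5B and COL15A1, at 0.48 and 0.49. FDX1 was nearest to COX16 and ZNF12, at 0.16 and 0.19, and SRD5A1 to APH1B and SMIM14, at 0.20 and 0.21. Among the described rows, INSL3 was nearest to EPHX2 and PLD1, at 0.21 and 0.24, LHCGR to TMEM150C, at 0.24, and CYP17A1 row 1 to PIK3IP1 and ERGIC1, at 0.33 and 0.34. CYP17A1 row 2 was nearest to GASK1B and ERGIC1, at 0.37 and 0.44, and row 3 to CRABP2 and EMID1, at 1.15 and 1.19, where the SD of row 3 itself was 3.39.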

How the data were processed

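Testes of 12 animals in 4 groups of 3 were measured by Ribo-seq. The authors cleaned the reads (fastp), took out those of rRNA (Bowtie2) and of other non-coding RNA (BLAST), aligned the rest with STAR to the yak genome BosGru 3.0, and obtained with RSEM the expected counts of each gene in its ORF, which they deposited as whole numbers, and the deposited FPKM. RSEM divides reads of near-identical genes by estimation. Libraries that occur in more than 1 of the 3 comparison tables held identical values. Tables of group means and the authors' fold changes, p-values and FDR were not used. Strandedness of the counting is not given in the sources used here.

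After filterByExpr and TMM scaling, the 6 libraries of a comparison were fitted with edgeR 4.0.16 (R 4.3.3), with Benjamini-Hochberg adjustment over all genes tested. SE was the log2 fold change over the square root of F. The fitting was tested on simulated data. Alternatives were DESeq2 1.42.0, library size alone, RLE, the geometric mean of SOX9 and WT1 (CLDN11, planned as the third, was not found by symbol), no filter, all 12 libraries, limma 3.58.1 on log2(FPKM + 1), the replicate block and each library left out. Genes of the pathway were named if called in CY against Y4Y or Y4Y against Y18M, up to 4 in each direction and comparison by size of change, with NR5A1, HSD3B1 (here the row so described), POR, FDXR, CYB5A and RXFP2 in any case, and the 2 genes most like each member. Some genes that this rule names are not reported here. The members and lists were chosen with earlier results of these data known. Figures used matplotlib 3.10.9.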

Additional observations from a re-analysis of the deposited data

How the results depend on the processing

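Low counts kept CYP19A1 and RXFP2 out of the filtered fits. With the Sertoli scaling, which moved the median of all genes in CY against Y4Y to -1.96, STAR, CYP11A1, CYP17A1 row 3, SRD5A1 and HSD17B1 kept their direction, 1 of the 5 genes was called, and FDX1 was at -0.95, SCARB1 -1.10, INSL3 -1.43, LHCGR -1.53, CYP17A1 rows 1 and 2 -0.41 and -0.13, GATA6 -0.029, NR5A1 -0.31, the 3-beta-hydroxysteroid dehydrogenase row -0.97, POR -0.98, FDXR -0.72, CYB5A -0.78 and TSPO -1.74. In Y4Y against Y18M this scaling put FDX1 at 0.24, LHCGR at 0.062, POR at 0.28 and CYB5A at 0.73. In Y4Y against Y6M it put INSL3 at 0.18 and CYB5A at 1.10, with 3 described rows called. Library size alone put CYB5A at 0.26 in Y4Y against Y6M and LIPE at 0.19 in CY against Y6M, and limma put them at 0.29 and 0.13. In Y4Y against Y6M the share of lower among called genes went from 44.3% to 27.4% with library size alone.

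In Y18M against Y6M, where none was called, DESeq2 called 3 of the 5 genes, 2 described rows and 7 pathway genes, the fit of all 12 libraries 2 of the 5 and 8 pathway genes, and library size alone and limma 1 pathway gene each, where these fits called 12.8%, 15.7%, 1.03% and 1.14% of all genes. In Y4Y against Y18M, DESeq2 and the fit of all 12 libraries each called 2 of the 5 genes, 4 described rows and 13 pathway genes, against 27.3% and 20.6% of all genes. With 1 library left out, in Y18M against Y6M 0 to 4 of the 5 genes, 0 to 3 described rows and 0 to 14 pathway genes were called, and in Y4Y against Y18M 0 to 3, 0 to 5 and 0 to 22. In CY against Y4Y these were 3 to 5, 3 and 20 to 23, in CY against Y6M 3 to 4, 4 and 14 to 18, and in Y4Y against Y6M 4, 5 and 22 to 25. The share of all genes called in these fits was 0% to 16.8% in Y18M against Y6M and 0% to 44.6% in Y4Y against Y18M. It was 41.6% to 44.1% in CY against Y4Y, 34.5% to 37% in CY against Y6M and 52.6% to 55.4% in Y4Y against Y6M.

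In Y18M against Y6M, leaving out 1 library gave changes of -0.18 (without Y18M library 2) to 0.33 for SRD5A1, -0.087 (without Y18M library 1) to 0.49 for INSL3, -1.998 to 0.20 (without Y6M library 1) for HSD17B6, -0.79 (without Y18M library 2) to 1.90 for LIPE and -0.049 (without Y6M library 2) to 0.22 for CYB5A. In Y4Y against Y18M, the change of TSPO ran from -0.16 (without Y4Y library 2) to 0.30. The difference in the log2 ratio of CYP17A1 row 1 to STAR ran from -0.18 (without Y4Y library 2) to 0.29 (without Y4Y library 3) there, and from -0.12 (without CY library 3) to 0.44 (without Y6M library 1) in CY against Y6M. The cause of these changes was not tested.

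Same-numbered libraries of the groups compared had correlations of -0.09 to 0.05 in their deviations from the group means, and libraries of different number -0.11 to 0.12. Whether libraries of the same number share a batch or a pairing was not tested. With the replicate block SCARB1 was called in CY against Y4Y, at 1.77 (adjusted p = 0.0456, edgeR), 1 pathway gene was called in Y18M against Y6M, against 3.62% of all genes, and the calls over all genes went from 3 higher and 7 lower to 235 and 303 there and from 6 to 0 in Y4Y against Y18M. Of 3 CY libraries, 2 correlated best with the Y4Y library of their own number, at correlations of at most 0.05, and 0 of 3 did so in the other comparisons. Without a filter, 3 genes were called in Y18M against Y6M in place of 10. The ratios, the CYP17A1 sum and the counts of described rows were chosen after seeing the data. The CYP17A1 sum was called, like row 1, in the 3 comparisons among CY, Y4Y and Y6M and in no other.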
